A study of Mus musculus with 8 samples.

Results

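Kif3a, Rad50, Il4, Il13, Il5 and Irf1 lie next to each other on mouse chromosome 11, and the contacts that join their DNA were followed here through the first cell cycle of activated B cells. These 6 genes, of 21938 in the annotation used, were selected on measured values, because the contact of Kif3a with the body of Rad50 was among those that differed between cells about to divide and cells 10 h after activation. The values of that one contrast are therefore given as a description with no test. Every comparison with the 10 h or the imminent division libraries shares libraries with it and is not independent of the choice, while the comparison of pre-S cells with 3 h shares none. The surroundings are chr11:52449832-54700840, which hold the starts of 32 protein-coding genes and were measured in 45 bins of about 50 kb.

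The study made 8 in situ Hi-C libraries, which count pairs of DNA ends ligated together in fixed nuclei, from splenic B cells of C57BL/6 mice stimulated with LPS, a bacterial membrane component that drives B cells into division. The methods give all animals as male and on a Pep3b background, and the B cells were isolated by negative selection and labeled with CTV, a dye that is diluted at each division. Cells were taken 3 h and 10 h after the stimulus and as 2 groups at 33 h. These were cells sorted before S phase (33 h pre-S) and cells that the submitters label imminent division (33 h imminent division). Each group has 2 libraries that the submitters name biological replicates. The 33 h imminent division cells were still undivided at sorting. The paper calls them the bulk of such cells, and its methods give no cell cycle gate for them. That group may therefore hold cells before S phase too, and the 2 groups at 33 h are not successive times. The 33 h pre-S cells came from C57BL/6 FUCCI mice, whose transgenic fluorescent reporters mark the phases of the cell cycle, and were sorted for the G1 reporter without the S to M reporter. That group therefore differed from the other 3 in transgene and gate as well as in stage, and these cannot be told apart. Nothing in the sources says how many animals went into a library, so the p-values measure the spread between these libraries.

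The libraries held 88703088 to 218945191 read pairs, a 3 h and an imminent division library in turn, and 70.9% to 75.1% of autosomal pairs joined ends on the same chromosome. Imminent division replicate 2 stood apart on the sex chromosomes, with 3.98% of within-chromosome pairs on X, against 2.39% to 2.88% in the other libraries, and 184 CPM (of within-chromosome pairs) on Y, against 273 to 391, values that go against a library of male cells alone. Pre-S cells were compared with 3 h without a value of this library on either side, but it entered the shared estimate of the spread. Leaving it out changed no call from 3 h to pre-S among the named pairs or in the insulation score, component, boundary ratio and promoter interactivity of these genes, and other comparisons are given without it where it matters.

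The locus is known best from T helper 2 cells, a T cell type that secretes IL-4, IL-13 and IL-5 together. In those cells the promoters of the cytokine genes are in contact with each other and with a control region inside the 3′ part of Rad50. B cells are not the usual source of these cytokines, and RNA was not analysed here, so the values below speak only of the folding of the locus. Kif3a encodes a motor subunit of kinesin-2, which carries cargo along cilia and microtubules. Rad50 encodes the ATPase of the MRN complex that holds broken DNA ends, and Irf1 a transcription factor of the interferon response.

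The genes follow each other on GRCm38 chromosome 11 from Kif3a at chr11:53567379-53601967 on the plus strand. Il4 lies at chr11:53602982-53618669 and Il13 at chr11:53631324-53634702, both on the minus strand. Rad50, at chr11:53649519-53707319, is also on the minus strand, so its 3′ end points at Il13 and its start lies toward Il5. Il5 lies at chr11:53720794-53725106 and Irf1 at chr11:53770014-53778374, both on the plus strand. From the start of Kif3a, the start of Il4 is 51.3 kb away, that of Il13 67.3 kb, that of Rad50 140 kb, that of Il5 153 kb and that of Irf1 203 kb.

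At 50 kb the genes fall into 5 bins that can be told apart. These are Kif3a (chr11:53550397-53599940), Il4 with Il13 (chr11:53599937-53650115), the Rad50 body (chr11:53650112-53700202), the starts of Rad50 and Il5 (chr11:53700199-53750115) and Irf1 (chr11:53750112-53800119). The Il4 and Il13 bin also holds the last bases of Kif3a and of Rad50, and contacts of Il4 cannot be separated from those of Il13, nor the start of Rad50 from Il5. The bins end at sites of MboI, the enzyme that cut the DNA at GATC, and counts were assigned by restriction fragment. The sequences at the edges of the bins most described here are shown for that reason, plus strand, with GATC in capitals:

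Kif3a bin, left edge, chr11:53550369-53550428: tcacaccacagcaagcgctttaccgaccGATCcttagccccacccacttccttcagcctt

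Kif3a bin, right edge, chr11:53599909-53599968: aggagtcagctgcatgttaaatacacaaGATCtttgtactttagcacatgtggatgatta

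Rad50 body bin, left edge, chr11:53650084-53650143: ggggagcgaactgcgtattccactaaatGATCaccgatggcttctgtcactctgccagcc

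Rad50 body bin, right edge, chr11:53700171-53700230: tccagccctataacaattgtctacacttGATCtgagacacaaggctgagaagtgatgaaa

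The Kif3a bin holds 135 fragments and 44.8% G and C, against a median of 123 fragments and 41.4% over all autosomal bins kept. RefSeq promoter sequences (GRCm38.p6, from 250 bases before a start to 50 after it, in the direction of the gene) were found for 5 of the 6 genes. Those of Kif3a and of the 3 interleukin genes are shown because they are the ends whose contacts are described. GATC was found in the Il5 promoter alone among them. AGATAA or its reverse complement TTATCT, a form of the letters that GATA factors bind, was found in the Il13 promoter alone. Other forms of these letters were not counted, so these promoters may hold them. GATC and AGATAA are in capitals where they occur, and they do not overlap in any of the 4:

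Kif3a, chr11:53567119-53567418, plus strand: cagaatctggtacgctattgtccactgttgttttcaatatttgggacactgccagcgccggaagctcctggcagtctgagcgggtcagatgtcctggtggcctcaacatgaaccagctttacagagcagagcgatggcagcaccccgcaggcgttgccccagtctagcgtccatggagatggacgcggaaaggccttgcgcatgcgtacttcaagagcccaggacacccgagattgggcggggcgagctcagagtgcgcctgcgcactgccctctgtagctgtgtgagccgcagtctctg

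Il4, chr11:53618616-53618915, minus strand: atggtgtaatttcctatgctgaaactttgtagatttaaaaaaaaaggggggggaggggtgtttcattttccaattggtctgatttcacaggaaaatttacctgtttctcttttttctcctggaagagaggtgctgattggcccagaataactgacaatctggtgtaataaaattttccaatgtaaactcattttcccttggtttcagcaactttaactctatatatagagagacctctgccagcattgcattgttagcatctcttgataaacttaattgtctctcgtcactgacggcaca

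Il13, chr11:53634653-53634952, minus strand: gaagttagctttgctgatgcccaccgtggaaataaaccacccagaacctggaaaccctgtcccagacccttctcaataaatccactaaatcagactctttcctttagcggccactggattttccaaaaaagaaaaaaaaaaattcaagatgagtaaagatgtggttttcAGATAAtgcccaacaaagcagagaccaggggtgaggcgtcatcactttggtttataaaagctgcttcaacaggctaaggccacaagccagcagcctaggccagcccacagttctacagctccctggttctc

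Il5, chr11:53720544-53720843, plus strand: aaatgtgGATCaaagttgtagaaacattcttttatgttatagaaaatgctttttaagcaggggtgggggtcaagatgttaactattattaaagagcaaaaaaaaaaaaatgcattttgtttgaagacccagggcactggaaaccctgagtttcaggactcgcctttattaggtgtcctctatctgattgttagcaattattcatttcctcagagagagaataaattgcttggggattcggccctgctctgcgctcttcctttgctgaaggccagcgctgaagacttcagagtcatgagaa

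Of 32851 RefSeq promoters of this length, 48.0% hold GATC and 11.2% hold AGATAA on either strand. The Kif3a promoter holds 18 CG dinucleotides and that of Irf1 32, which has neither motif, while the interleukin promoters hold 2 in Il4, 3 in Il13 and 4 in Il5.

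The contact of Kif3a with the Rad50 body, 100 kb apart, was more frequent than the average pair at its distance in every library and most frequent at 33 h. Values are given as observed over expected, the count of a bin pair over the mean count of all autosomal pairs at that distance in the same library. They were 1.37 and 1.48 in the 3 h libraries, 1.41 and 1.27 at 10 h, 1.64 and 2.07 in pre-S cells and 2.19 and 2.28 in cells of imminent division. All 4 libraries at 33 h were above all 4 earlier ones, and the 3 h and 10 h groups overlapped. The separation of imminent division from 10 h follows from the choice of this contact. The share of pairs with such values was not counted, so the separation is a description. Behind these values stood raw counts of 74 and 158 at 3 h, 109 and 124 at 10 h, 127 and 135 in pre-S cells and 292 and 366 in imminent division, and these follow library depth as well. Ranked among pairs 100 kb apart, the contact was above 78.0% and 82.5% of them at 3 h and above 97.1% and 96.7% in imminent division.

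**Figure D1:**
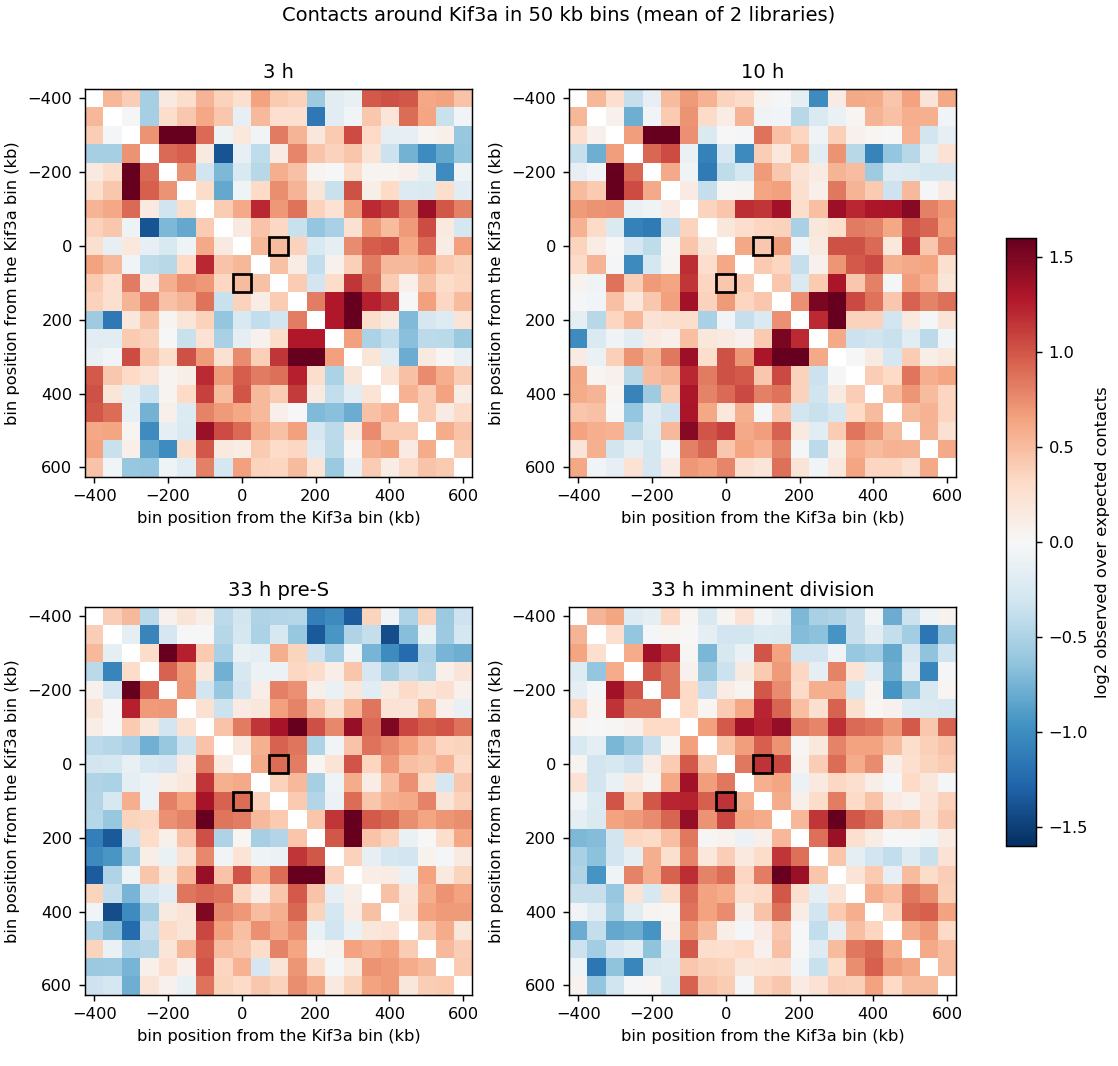
Contact maps of the locus in the 4 groups, as log2 of observed over expected contacts (color, limited at the ends of the scale), mean of 2 libraries a group, with bins placed by their distance in kb from the Kif3a bin on both axes. The black squares mark Kif3a with the Rad50 body, whose mean observed over expected was 1.43 at 3 h, 1.34 at 10 h, 1.86 in pre-S cells and 2.23 in imminent division.

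On the scale of the fitted log2 change, the contact was −0.09 ± 0.14 (SE) from 3 h to 10 h (adjusted p = 0.967, edgeR's quasi-likelihood test with Benjamini-Hochberg adjustment over 1458613 bin pairs). From 3 h to pre-S it was 0.42 ± 0.14 and did not pass the 5% threshold (adjusted p = 0.136, same test). That change lay between 0.26 and 0.60 when 1 library was left out. From 10 h to pre-S it was 0.51 ± 0.14, between 0.35 and 0.69 when 1 library was left out, and from pre-S to imminent division 0.38 ± 0.12, between 0.21 and 0.54. Both share a group with the selecting contrast on the side that the selection favored, so they are a description of this contact and no test is read from them. The selecting contrast, imminent division over 10 h, gave 0.89, and 0.43 once the interchromosomal coverage of both bins was entered in the offsets. Pairs 100 kb apart across the autosomes had a median log2 change of 0.05 from 3 h to pre-S, with an SD of 0.33 over 46999 pairs.

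The other contacts of Kif3a did not all follow. With the bin that holds the starts of Rad50 and Il5, 150 kb away, observed over expected was 1.21 and 1.38 at 3 h, 1.55 and 1.66 at 10 h, 1.59 and 1.93 in pre-S cells and 2.23 and 1.98 in imminent division. The 10 h libraries were already above those at 3 h, and imminent division was above all others. With Il4 and Il13, next to Kif3a, the range over the 3 h, 10 h and pre-S groups was 1.42 to 1.62, with 1.64 and 1.94 in imminent division. With Irf1, 200 kb away, values stayed near the average for the distance, at 0.771 and 0.914 at 3 h and 0.982 and 1.1 in imminent division. The log2 changes from 3 h to pre-S were 0.44 ± 0.17 for the Rad50 and Il5 starts (adjusted p = 0.244), 0.18 ± 0.10 for Il4 and Il13 (0.506) and 0.28 ± 0.25 for Irf1 (0.705), and none passed edgeR's test.

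**Figure D2:**
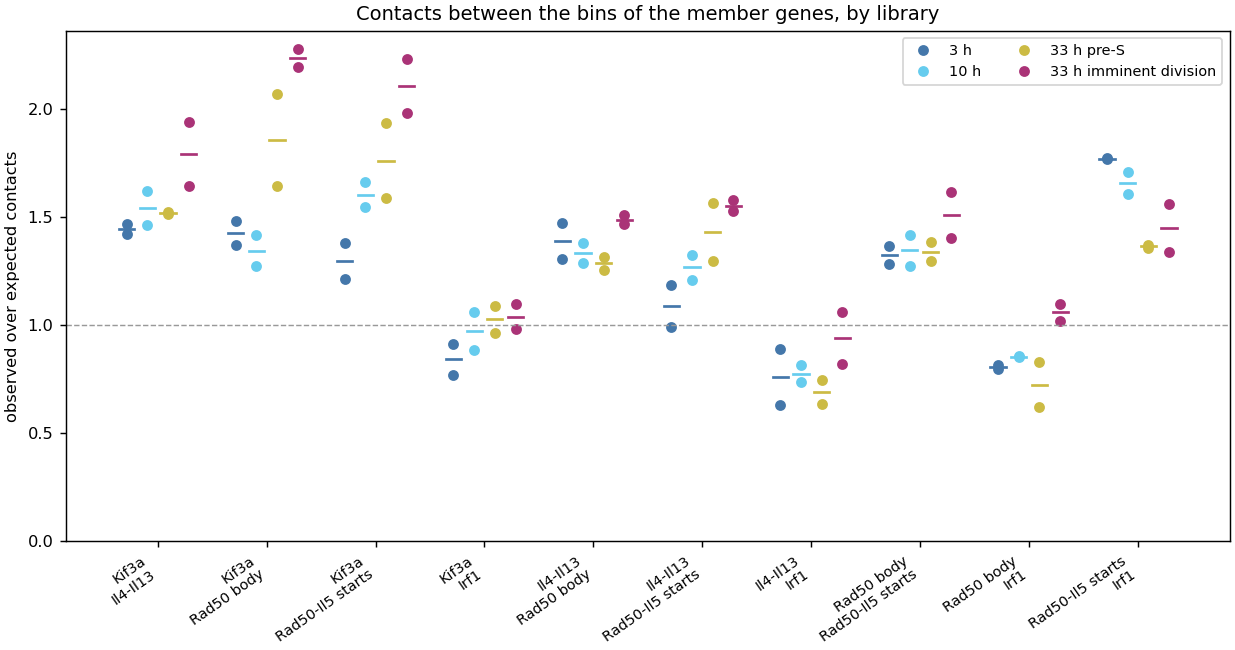
Observed over expected contacts (vertical axis) of each of the 10 pairs of the 5 bins, with 1 point a library and a bar at the mean of the 2 libraries of a group; the dashed line marks the average for the distance. Kif3a with the Rad50 body and with the Rad50 and Il5 starts show the highest values of the plot, at 1.98 to 2.28 in imminent division, and the starts with Irf1 are highest at 3 h, at 1.77 in both libraries.

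Among the cytokine genes themselves, Il4 and Il13 with the Rad50 and Il5 starts, the pair that joins the cytokine promoters, went from 1.19 and 0.992 at 3 h to 1.32 and 1.21 at 10 h. It reached 1.29 and 1.56 in pre-S cells and 1.53 and 1.58 in imminent division. Pre-S cells overlapped with both 10 h and imminent division, while imminent division was above 10 h, and the log2 change from 3 h to pre-S was 0.45 ± 0.16 (adjusted p = 0.179, edgeR). Il4 and Il13 with the Rad50 body, the pair that would hold a contact of the cytokine genes with the 3′ part of Rad50, was 1.47 and 1.30 at 3 h and 1.32 and 1.25 in pre-S cells, a log2 change of 0.01 ± 0.11 (adjusted p = 0.980). These values rested on counts of 491 at 3 h and 398 in pre-S cells over both libraries, and a change within that error was not detectable at this depth.

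The contacts of Irf1 went both ways. The Rad50 and Il5 starts with Irf1, neighboring bins, had values of 1.77 in both 3 h libraries, 1.71 and 1.61 at 10 h, 1.36 and 1.37 in pre-S cells and 1.56 and 1.34 in imminent division. Both earlier groups were above the later ones, and the log2 change from 3 h to pre-S was −0.27 ± 0.10 (adjusted p = 0.236). The Rad50 body with Irf1 was at 0.797 and 0.814 at 3 h, 0.621 and 0.827 in pre-S cells and 1.1 and 1.02 in imminent division, with a log2 change from pre-S to imminent division of 0.57 ± 0.17 (adjusted p = 0.110). Neither passed.

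Taking the 10 pairs of these bins as a list, none was called from 3 h to 10 h (0 at an unadjusted p under 0.05), where 0.000617% of all pairs tested were called. Between 3 h and pre-S, edgeR called none (4 at an unadjusted p under 0.05), against 0.68% of all pairs, and 7 of 10 changes were above 0 with a median of 0.14. Among pairs 100 kb apart the share called was higher, at 1.84% in this comparison. It was 1.75% there for pre-S over 10 h and 0.772% from pre-S to imminent division. For pre-S over 10 h, 1 was past the threshold, where 0.599% of all pairs were, and it was Kif3a with the Rad50 body, the contact that chose the locus, so nothing is read from it. From pre-S to imminent division none was called (5 at an unadjusted p under 0.05), against 0.372%, and 10 of 10 changes were above 0 with a median of 0.21. Imminent division was the high side of the selecting contrast, so that direction is not independent of the choice. In the selecting contrast itself 3 of the 10 were past the threshold, where 2.03% of all pairs were, which describes the selection and is no result. Those 3 were Kif3a with the Rad50 body at 0.89, with the Rad50 and Il5 starts at 0.52 and with Il4 and Il13 at 0.31. Just outside was Il4 and Il13 with the starts, at 0.40.

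Of the 720 pairs of this neighborhood tested from 3 h to pre-S, 7 were called, near the background of 0.68%, and 4 of the 7 joined the Rad50 body or the bin of the Rad50 and Il5 starts to the bins on the far side of Kif3a. The bin of Shroom1 and Sowaha (chr11:53450601-53499937), an actin-binding protein gene and its neighbor, met the Rad50 and Il5 starts with observed over expected of 2.00 and 1.65 at 3 h and 2.82 and 2.24 at 10 h. It reached 3.44 and 3.50 in pre-S cells and 2.97 and 2.34 in imminent division. Pre-S cells were above all other libraries, on raw counts of 116 and 101 against 46 and 74 at 3 h. The rise was 1.03 ± 0.17 on the log2 scale (adjusted p = 2.15e-05, edgeR's quasi-likelihood test). Without 3 h replicate 2 it was 0.85 and no longer passed (adjusted p = 0.0549).

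Sept8 (chr11:53499934-53550400), a septin gene that lies between Shroom1 and Kif3a, met the same starts with values of 0.739 and 0.825 at 3 h, 1.30 and 1.29 at 10 h, 1.74 and 1.87 in pre-S cells and 1.77 and 1.53 in imminent division. The 3 h, 10 h and pre-S groups did not overlap, and the share of pairs with such a separation was not counted. The contact went from below to above the average for 200 kb. It rose by 1.17 ± 0.22 (adjusted p = 0.000324, edgeR), and the call was kept under every alternative and left-out library run. With the Rad50 body, Sept8 rose by 0.65 ± 0.17 (adjusted p = 0.0337), from 1.27 and 1.24 at 3 h to 1.91 and 1.955 in pre-S cells, and Shroom1 with Sowaha rose by 0.63 ± 0.17 (adjusted p = 0.0413), from 1.41 and 1.83 to 2.56 and 2.44. Both of these calls are lost when any 3 h or pre-S library is left out, the second also without either 10 h library.

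**Figure D3:**
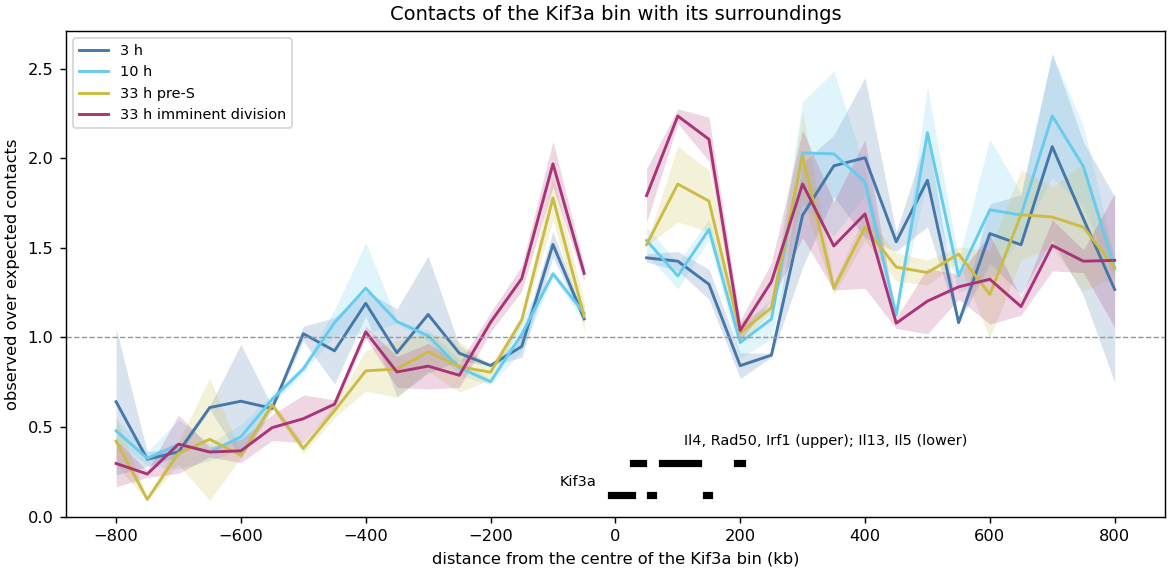
Observed over expected contacts (vertical axis) of the Kif3a bin with the bins around it, by distance in kb from the centre of the Kif3a bin, as the mean (line) and range (shade) of the 2 libraries of a group; black bars show the 6 genes. The imminent division line is above the others over Rad50 and at the Shroom1 and Sowaha bin 100 kb to the left.

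The contacts of Kif3a with the rest of the window are given as values, for bins picked after their values were seen. With Shroom1 and Sowaha, 100 kb to the left, values were 1.45 and 1.59 at 3 h and 1.84 and 2.10 in imminent division. With the bin 500 kb to the left, they were 0.979 and 1.06 at 3 h, 0.80 and 0.849 at 10 h, 0.352 and 0.409 in pre-S cells and 0.414 and 0.679 in imminent division. That bin was lower in every library at 33 h than in any earlier one, though on raw counts of 6 and 6 in pre-S cells. To the right the far bins went both ways. With Pdlim4, 500 kb away, values were 2.14 and 1.62 at 3 h and 1.29 and 1.43 in pre-S cells, while with the bin 1100 kb away they were 1.28 and 1.1 at 3 h and 1.90 and 1.56 in pre-S cells, on raw counts of 6 to 14. Of the 40 pairs of Kif3a in the window that were tested from 3 h to pre-S, none was called by edgeR (7 at an unadjusted p under 0.05), and 17 were above 0. From pre-S to imminent division 1 pair, with the bin 1100 kb away at the left end of the window, fell by 2.22 on the log2 scale (adjusted p = 0.041), on counts of 13 and 6 in pre-S cells and 3 and 5 in imminent division. Of all pairs 0.372% were called in that comparison, which shares the imminent division libraries with the selecting contrast, and DESeq2 called no pair of the window in it.

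Over the 720 pairs of the window tested, edgeR called none from 3 h to 10 h (62 at an unadjusted p under 0.05) and 5 higher with 2 lower from 3 h to pre-S, where it called 0.68% of all pairs. These 7 of 720 are near that background. The fifth that rose joined P4ha2, which encodes a collagen prolyl hydroxylase subunit, to a bin without a gene start 350 kb away, by 0.95 ± 0.25 (adjusted p = 0.0309). Its pre-S values were 2.78 and 1.57, and without pre-S replicate 1 the change was 0.46. The P4ha2 bin had the highest interchromosomal coverage of the window, with means of 71.7 CPM at 3 h and 61.2 in pre-S cells. Both that fell joined the gene-free bin chr11:53100000-53150302 to bins 850 and 1050 kb away. With Slc22a21, a carnitine transporter gene, the counts were 13 and 25 at 3 h and 2 and 5 in pre-S cells, a fall by 2.44 on the log2 scale (adjusted p = 0.00268), and with the bin at chr11:54150473-54199989 it fell by 2.86 (adjusted p = 0.0219). The first of these calls is lost without 3 h replicate 2 or pre-S replicate 1, the second without 3 h replicate 1 or either pre-S library, and that of P4ha2 without either 3 h library or pre-S replicate 1. For pre-S over 10 h, 4 of the 720 rose and 3 fell, against 0.599% of all pairs called, and 0 were called without any 1 of the 10 h or pre-S libraries. From pre-S to imminent division 2 rose and 1 fell, against 0.372%, and 0 or 1 were called without any 1 of the libraries compared.

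The insulation score measures how many contacts pass over a bin: the log2 of the mean contact between the 5 bins on its left and the 5 on its right, over the mean of the chromosome. A higher score means that the sides are joined more. At Kif3a it was 0.05 and 0.00 at 3 h, 0.12 and 0.08 at 10 h, 0.39 and 0.46 in pre-S cells and 0.53 and 0.48 in imminent division. At Il4 and Il13 it was 0.00 and −0.02, then 0.20 and 0.17, then 0.48 and 0.55, and last 0.62 and 0.56. At the Rad50 body it was 0.01 and −0.14, then 0.15 and 0.18, then 0.32 and 0.38, and last 0.36 and 0.37. In these 3 bins no library at 33 h overlapped with an earlier one, and the share of all bins that did so was not counted. The separation includes imminent division against 10 h, the selecting contrast, so it is a description.

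The score rose from 3 h to pre-S by 0.40 at Kif3a (adjusted p = 7.8e-06, limma with Benjamini-Hochberg adjustment), by 0.53 at Il4 and Il13 (1.9e-07) and by 0.42 at the Rad50 body (8.8e-06), each with an SE of 0.06. It was 0.14 at the Rad50 and Il5 starts (0.0572), where it passed at 0.20 without 3 h replicate 1 (0.0130) and was 0.0732 without 3 h replicate 2 (0.369), and −0.03 at Irf1 (0.638). Scores of neighboring bins share many of their contacts, so the 3 bins called are not separate measurements. The score at Kif3a also counts the contacts of Sept8 and of Shroom1 and Sowaha with the Rad50 bins given above. These 3 of 5 bins stand against 56.3% of all bins called from 3 h to pre-S, so the share is near the background. The change itself was above the median over all bins, which was 0.07. The same 3 bins rose from 10 h to pre-S, by 0.33, 0.33 and 0.18, against 53.1% of bins called, with 2 of 5 called without either 10 h library or pre-S replicate 2 and 0 with 10 bins on each side. Between 3 h and 10 h limma called none (3 at an unadjusted p under 0.05), against 1.49%, but 3 without 3 h replicate 1, and from pre-S to imminent division none (0 at an unadjusted p under 0.05), against 11.8%. With 10 bins on each side in place of 5, only Il4 and Il13 of the 5 passed from 3 h to pre-S. The rises from 10 h to pre-S use the low side of the selecting contrast and are not independent of the choice.

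**Figure D4:**
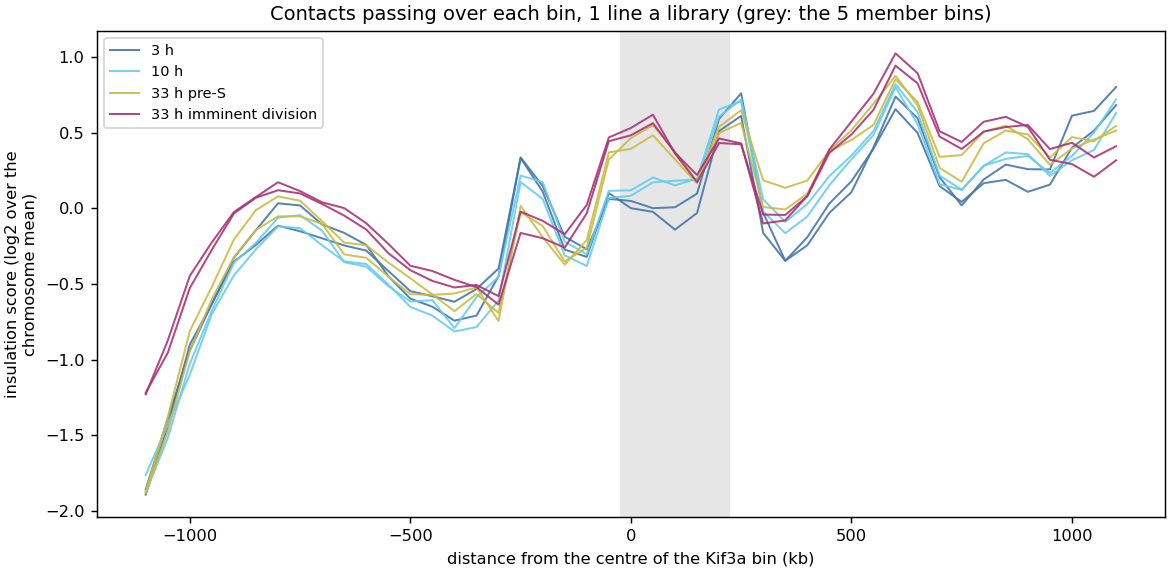
Insulation score (vertical axis, log2 over the chromosome mean) of every bin of the window by distance in kb from the centre of the Kif3a bin, with 1 line a library and the 5 bins of the described genes in gray. Over Kif3a, Il4, Il13 and the Rad50 body the libraries at 33 h lie between 0.32 and 0.62 and the earlier ones between −0.14 and 0.20, and at Irf1 all 8 lie between 0.43 and 0.65.

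Around the locus the score moved in both directions. Of the 45 bins of the window 16 rose and 4 fell from 3 h to pre-S, where 56.3% of all bins were called, so the count is not above the background. Sept8 rose by 0.26 (adjusted p = 0.000547, limma), while Hspa4, a heat shock protein gene about 250 kb to the left of Kif3a, went from 0.34 and 0.33 at 3 h to 0.02 and −0.03 in pre-S cells, a fall by 0.34 (9.6e-05). Aff4, which encodes a scaffold of the elongation machinery, fell by 0.28 (0.000746). To the right of the locus, group means rose from −0.22 at 3 h to 0.14 in pre-S cells at Slc22a21. They rose from 0.001 to 0.38 at Slc22a4 and from 0.14 to 0.48 at Pdlim4. Rises of the size seen at Kif3a and the Rad50 body were therefore not particular to those bins.

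The directional measure of a boundary, log2 of contacts upstream over contacts downstream within 1 Mb, was taken in 100 kb regions. The region of Sept8 and Kif3a faced downstream, toward Rad50, more strongly in pre-S cells: −0.45 and −0.42 at 3 h, −0.66 and −0.57 at 10 h, −0.74 and −0.83 in pre-S cells and −0.68 and −0.77 in imminent division. The region of the Rad50 start, Il5 and Irf1 went the other way, from −1.10 and −1.05 at 3 h and −1.03 and −0.96 at 10 h to −0.78 and −0.70 in pre-S cells and −0.45 and −0.52 in imminent division. In it no group overlapped with the next, which includes imminent division against 10 h, the selecting contrast. The share of all regions that did so was not counted. Between them, the region of Il4 and Il13, which also holds the Rad50 body, was nearer to balance, at −0.09 and −0.01 at 3 h, −0.10 and −0.25 at 10 h, −0.07 and −0.12 in pre-S cells and 0.10 and 0.12 in imminent division. Its sign turned in imminent division, a log2 change from pre-S of 0.21 that did not pass (adjusted p = 0.300, edgeR's glmTreat).

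The ratio fell from 3 h to pre-S by 0.35 at Sept8 and Kif3a (adjusted p = 0.00416, edgeR's glmTreat against a fold of 1.1). It rose by 0.33 at the Rad50 start, Il5 and Irf1 (0.00392), with −0.05 at Il4 and Il13 (0.950). Both calls are lost without pre-S replicate 2, with changes of −0.30 and 0.29. These 2 of 3 regions stand against 12.3% of all regions called. None of the 3 was called from 3 h to 10 h (0 at an unadjusted p under 0.05), against 0.383%. From 10 h to pre-S none was (1 at an unadjusted p under 0.05), against 4.8%, and from pre-S to imminent division none (2 at an unadjusted p under 0.05), against 5.51%.

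The A/B component, the first principal component of the correlations of a chromosome's contacts at 100 kb, separates the gene-rich active side (A, above 0 here) from the inactive side. All of the locus was on the A side in every library. The region of Sept8 and Kif3a was at 0.69 and 0.67 at 3 h, 0.79 and 0.75 at 10 h, 1.01 and 0.93 in pre-S cells and 1.05 in both libraries of imminent division, with no overlap between groups. That separation includes the selecting contrast, imminent division against 10 h, and the share of all regions that show it was not counted. Il4 and Il13 were at 0.92 and 0.89, then 0.97 and 1.00, then 1.08 in both pre-S libraries, and last 1.13 and 1.16. The region of the Rad50 start, Il5 and Irf1 was the highest of the 3 in every library and ranged from 1.15 to 1.24 over all 8.

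The component rose from 3 h to pre-S by 0.29 ± 0.03 at Sept8 and Kif3a (adjusted p = 6.1e-07, limma). It rose by 0.17 ± 0.03 at Il4 and Il13 (5.0e-05), the region that also holds most of the Rad50 body. It was −0.04 ± 0.03 at the Rad50 start, Il5 and Irf1 (0.309). These 2 of 3 stand against 39.3% of all regions called. Both of the first also rose from 10 h to pre-S, by 0.20 and 0.10, against 26.1%; the call of Il4 and Il13 is lost when any 10 h or pre-S library is left out. Between 3 h and 10 h none was called (2 at an unadjusted p under 0.05), against 5.24%, and from pre-S to imminent division none (2 at an unadjusted p under 0.05), against 18.9%, but 1 without pre-S replicate 1. The rises from 10 h to pre-S use the low side of the selecting contrast and are not independent of the choice. From 3 h to pre-S 7 of the 22 regions of the window rose and 1 fell, not above the background of 39.3%. Further along, Slc22a4 and Pdlim4 (0.37), Csf2 and Il3 (0.30), P4ha2 (0.29), Acsl6 and Meikin (0.25) and Slc22a21 (0.23) rose too. The gene-free region chr11:53200001-53300000 fell, with a change of −0.145 (adjusted p = 0.0025, limma).

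**Figure D5:**
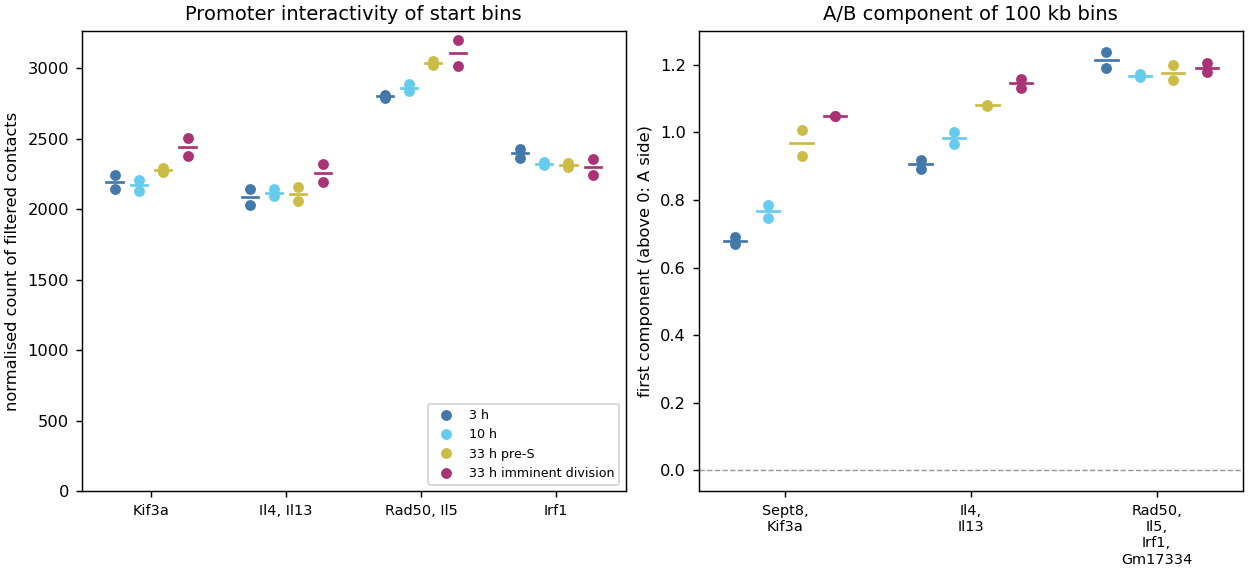
Left, promoter interactivity (normalized count of filtered contacts, axis from 0) of the 4 start bins, and right, the A/B component of the 3 regions of 100 kb, with 1 point a library and a bar at the mean of the 2 libraries of a group. The Rad50 and Il5 bin has the highest promoter counts, 2791 to 3203, and the component of Sept8 and Kif3a goes from 0.67 at 3 h to 1.05 in imminent division.

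Promoter interactivity sums the contacts of a bin with a gene start that exceed what their distance predicts. The Rad50 and Il5 start bin had the highest of the 4, with normalized counts of 2813 and 2791 at 3 h, 2887 and 2837 at 10 h, 3025 and 3049 in pre-S cells and 3203 and 3012 in imminent division. Kif3a had 2240 and 2141 at 3 h, 2291 and 2267 in pre-S cells and 2377 and 2503 in imminent division. Irf1 went from 2425 and 2367 at 3 h to 2299 and 2326 in pre-S cells, and Il4 with Il13 overlapped between those groups.

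The start bin of Rad50 and Il5 rose from 3 h to pre-S by 0.12 ± 0.04 on the log2 scale (adjusted p = 0.0247, edgeR's quasi-likelihood test), with 0.06 ± 0.04 at Kif3a (0.260), 0.02 ± 0.05 at Il4 and Il13 (0.768) and −0.05 ± 0.04 at Irf1 (0.368). This 1 of 4 stands against 35.3% of all start bins called. The call rests on the settings: DESeq2 made none, leaving out 3 h replicate 2 or either pre-S library ended it, and counting all contacts without the distance filter gave −0.02 there, −0.17 at Kif3a (adjusted p = 0.00274), −0.14 at Il4 and Il13 (0.00681) and −0.11 at Irf1 (0.0235). In the other comparisons edgeR and DESeq2 called none of the 4 with all libraries, and edgeR called 2 from pre-S to imminent division without imminent division replicate 1. At an unadjusted p under 0.05 there were 0 from 3 h to 10 h against 0.0379% called of all, 1 from 10 h to pre-S against 35.9%, and 2 from pre-S to imminent division against 10.5%.

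Of the 26 neighboring genes tested in the window, 12 rose and 1 fell from 3 h to pre-S, but these share bins: 7 of 16 start bins rose and 1 fell. With the 4 start bins above, edgeR called 9 of 20 and DESeq2 3 of 20, beside the 35.3% of all start bins that edgeR called. The median change over the genes was 0.10, against −0.00284 over all start bins. P4ha2, in the bin of highest interchromosomal coverage, rose by 0.19 (adjusted p = 0.0031, edgeR). The Shroom1 and Sowaha bin rose by 0.17 (0.00211), and Meikin, a meiotic kinetochore gene, by 0.17 (0.00543). The bin of Csf2 and Il3, which encode growth factors for myeloid cells, rose by 0.16 (0.00431), Aff4 by 0.15 (0.0138), Rapgef6 by 0.13 (0.0389) and Fnip1 by 0.11 (0.0297). Fstl4, at the left end, fell by 0.23 (0.000956).

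Bin coverage was taken from contacts with other chromosomes, which hold none of the contacts above. Between 3 h and pre-S none of the 5 bins was called by edgeR or by DESeq2 (0 at an unadjusted p under 0.05), against 59.9% of all bins. In CPM, Kif3a had 26.0 and 22.5 at 3 h and 22.0 and 23.2 in pre-S cells, and the Rad50 body 24.8 and 23.2 and then 24.1 and 24.5. Between 3 h and 10 h none was called (1 at an unadjusted p under 0.05; 0 by DESeq2), against 0.00845%, but 1 without 3 h replicate 2. From 10 h to pre-S none was (1; 0 by DESeq2), against 48.3%, but 1 without any 1 library of 3 h or imminent division. From pre-S to imminent division 4 of 5 rose. The rise was 0.16 at Kif3a, 0.15 at Il4 and Il13, 0.14 at the Rad50 body and 0.13 at the Rad50 and Il5 starts. Of all 47340 bins 43.6% were called, 7726 higher and 12916 lower. In the window 26 of 45 bins rose and 2 fell, so the rise was not particular to these genes. Imminent division is also the high side of the selecting contrast. Of the 4 calls, 0 were left without imminent division replicate 2 or pre-S replicate 1, and DESeq2 made 0. More DNA per bin and more contact per DNA cannot be told apart in these counts, and in the groups at 33 h the share of cells that had copied the locus was not tested.

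Contacts within chromosome 11 over more than 1.5 Mb gave another picture. In CPM over such counts of all bins, Kif3a had 32.5 and 29.5 at 3 h, 28.6 and 27.9 at 10 h, 20.04 and 21.8 in pre-S cells and 22.7 and 25.7 in imminent division. The groups did not overlap, which includes the selecting contrast, imminent division against 10 h, and the share of all bins that did so was not counted. All 5 bins fell from 3 h to pre-S, by 0.57 at Kif3a (adjusted p = 1.3e-05, edgeR), 0.48 at Il4 and Il13 (1.8e-05), 0.41 at the Rad50 body (5.5e-05), 0.40 at the Rad50 and Il5 starts (3.2e-05) and 0.34 at Irf1 (0.000228). Of all bins 61.4% were called from 3 h to pre-S, with a median change of −0.01. From pre-S to imminent division the changes went the other way, at 0.21 for Kif3a and for Il4 and Il13. They were 0.25 at the Rad50 body, 0.22 at the Rad50 and Il5 starts and 0.26 at Irf1. Imminent division is the high side of the selecting contrast, so these values are a description.

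Genes with related functions, all but Csf2 and Il3 outside the window, were read by promoter interactivity from 3 h to pre-S. Of all start bins 35.3% were called there. In type 2 cytokine signaling, 27 of 30 genes were tested, 4 rose and 8 fell, with a median of −0.04. These counts are of genes, not bins. Csf2 and Il3, both counted as rising, share a bin and were already given as neighbors. Some genes that fell share bins too, and not all that fell are named. Il6 rose by 0.32 (adjusted p = 1.2e-05, edgeR) and Tslp, an epithelial cytokine gene, by 0.13 (0.02), beside the Csf2 and Il3 bin. Il4ra, the receptor chain for IL-4 and IL-13, fell by 0.26 (0.000151). The bin of Csf2rb2 and of Csf2rb, which encodes the shared receptor chain for IL-3, IL-5 and GM-CSF, fell by 0.23 (0.000212). Tyk2 fell by 0.16 (0.00266), Il9 by 0.12 (0.0454) and the bin of Stat5a and Stat5b by 0.10 (0.0448).

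Of the 3 partners of Rad50 in break repair, Atm rose by 0.28 (adjusted p = 4.7e-05, edgeR) and Mre11a by 0.18 (0.00181), with 0.10 at Nbn (0.0843). Of 4 other kinesin-2 genes, Kif3c fell by 0.21 (0.00216) and Kif17 by 0.12 (0.0176), with −0.08 at Kif3b (0.086) and −0.01 at Kifap3 (0.925). Of 8 other Irf genes, Irf8 fell by 0.13 (0.0189) and Irf3 by 0.11 (0.0329). The start bins whose promoter interactivity was most like that of Kif3a over the 8 libraries, among 13188 compared and more than 1 Mb away, were those of Pmp2 with Fabp9 and Gm37389 (Pearson r = 0.987), Rassf8 (0.977), Optn (0.970), Gm17067 (0.968) and Lhx2 (0.967). These points share libraries and their depth.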

How the data were processed

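The deposited files hold raw counts of read pairs between 50 kb bins, 1 contact matrix a library; the authors had aligned the reads to mm10 with diffHic's pipeline (cutadapt, bowtie2), marked duplicates with Picard and removed dangling ends. Bin positions were rebuilt from MboI fragment midpoints of GRCm38. Pairs of autosomal bins were tested with edgeR 4.0.16 (quasi-likelihood, loess offsets, pairs under 1.5 Mb apart fitted separately) where their abundance was over 4 times the interchromosomal background, which left no pair with under 46 counts in all. Boundary ratios used glmTreat, and insulation and components limma 3.58.1, in R 4.3.3; DESeq2 1.42.0 was an alternative. All 8 libraries entered each fit, with 4 residual degrees of freedom, and p-values were adjusted over all autosomal features. Of 48088 autosomal bins 748 were left out. Counts of the 2 libraries of a group were compared over up to 456214 bin pairs, and chi-square per degree of freedom was 1.17 at 3 h, 1.02 at 10 h, 1.03 in pre-S cells and 1.30 in imminent division, so each pair of libraries differed by somewhat more than sampling noise and both were counted. X-linked genes were not tested. Scripts were tested on simulated data. The genes, window and gene lists were chosen with earlier results of these data known. Named pairs are all pairs of the gene bins and, by p, at most 5 called in each direction from 3 h to pre-S. Intervals and errors cover counting and the spread between 2 libraries, and p-values of comparisons that share libraries are not independent. The setting of promoter interactivity follows the methods of the study, at 50 kb.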

Additional observations from a re-analysis of the deposited data

How the results depend on the processing

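With 2 libraries a group and 4 residual degrees of freedom, pairs with few counts limit what can be called, and bins of 50 kb cannot separate neighboring promoters. Kif3a with the Rad50 body kept its direction from 3 h to pre-S, from 10 h to pre-S and from pre-S to imminent division under every alternative run at 50 kb. From 3 h to 10 h, where it was not called, it turned from −0.09 to 0.0717 with coverage in the offsets. In 100 kb bins the contact has no pair of its own: the pair that holds it also joins Sept8 and Il4 with Il13, gave 0.00428 from 3 h to 10 h and 0.35 from 3 h to pre-S (edgeR, adjusted p = 0.0046), and says nothing of Kif3a with the Rad50 body alone. For pre-S over 10 h, which shares libraries with the selecting contrast, its value of 0.51 was no longer past the threshold with coverage in the offsets (0.28), with TMM factors (0.39), with DESeq2 (0.39), with no abundance filter (0.51), after thinning to the shallowest library (0.50) and with the replicate block (0.52, adjusted p = 0.0567). Leaving out 1 library gave −0.15 to −0.00812 from 3 h to 10 h, 0.26 to 0.60 from 3 h to pre-S, 0.35 to 0.69 from 10 h to pre-S and 0.21 to 0.54 from pre-S to imminent division; the cause was not tested.

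Called pairs of the window from 3 h to pre-S, 7 in all, became 12 with coverage in the offsets, 23 with TMM factors, 15 with DESeq2, 27 in 100 kb bins and 3 after thinning. For pre-S over 10 h, also 7, they became 4 with coverage in the offsets, 0 with DESeq2, 3 with no abundance filter, 16 in 100 kb bins, 0 after thinning and 2 with the replicate block. From pre-S to imminent division the 3 became 19 with coverage, 5 with TMM, 0 with loess offsets per distance class, 0 with DESeq2 and 1 after thinning. Leaving out 1 library gave 0 from 3 h to 10 h, 2 to 7 from 3 h to pre-S (2 without 3 h replicate 2 or pre-S replicate 1, 3 without 3 h replicate 1 and 4 without pre-S replicate 2), 0 to 9 from 10 h to pre-S (0 without any of its own libraries) and 0 to 4 from pre-S to imminent division (0 or 1 without any of its own).

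From 3 h to pre-S, insulation called 3 of 5 bins, 1 with 10 bins a side, and 3 to 4 without 1 library. Promoter interactivity called 1 of 4 start bins, 0 with coverage in the offsets, 0 with DESeq2, 3 with no distance filter, and 0 to 1 without 1 library. Interchromosomal coverage called 0 of 5, 5 when contacts over 1.5 Mb took its place, and 0 to 2 without 1 library (2 without 3 h replicate 2). The component called 2 of 3 regions without any 1 library, and the boundary ratio 9 of 22 regions of the window (12.3% of all regions), 6 to 11 without 1 library. Values that changed sign, each between 3 h and pre-S, were Irf1 insulation (0.02 with 10 bins, 0.0893 with balanced counts, and −0.0746 to 0.00709 without 1 library); promoter interactivity without the distance filter at Kif3a (−0.17), Il4 and Il13 (−0.14) and the Rad50 and Il5 starts (−0.0162), and at Il4 and Il13 with coverage in the offsets (−0.11) and without 1 library (−0.0238 to 0.0564). Coverage of Il4 and Il13 turned to 0.00638 with DESeq2 and ranged from −0.0966 to 0.0588 without 1 library. That of the Rad50 body turned to −0.41 for contacts over 1.5 Mb and ranged from −0.031 to 0.058 without 1 library, and the boundary ratio of Il4 and Il13 to 0.10 with flanks of 500 kb. Same-numbered replicates did not deviate together, with correlations of −0.0959 to 0.025 over 456215 pairs. Differences within a group were mostly sampling noise, with chi-square per degree of freedom of 1.02 to 1.30. Such correlations therefore cannot decide whether the numbers pair the samples. From 3 h to pre-S the block also left out Shroom1 and Sowaha with the Rad50 body (0.62, edgeR, adjusted p = 0.0559) and the P4ha2 pair (0.92, 0.0518), and it changed no other call among the named pairs and bins.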

Other observations

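Counts of contacts within a single bin entered no comparison and were not tested. In CPM over such counts of all autosomal bins, Kif3a had 32.7 and 28.8 at 3 h, 27.1 and 27.96 at 10 h, 24.2 and 23.1 in pre-S cells and 25.9 and 28.9 in imminent division. The Rad50 body had 27.8 and 26.2 at 3 h, 24.2 and 25.8 at 10 h, 27.7 and 27.4 in pre-S cells and 29.1 and 33.1 in imminent division.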
